A study of Mus musculus with 10 samples.

Results

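The 10 genes described here encode transcription factors that drive regulatory T cells (Treg) from the resting, recirculating state of lymphoid organs into effector and tissue Treg: Prdm1, Batf, Irf4, Maf, Id2, Bhlhe40, Nfil3, Pparg, Ikzf3 and Runx3. They were chosen by name, with earlier results of these data known. All 10 matched 1 Ensembl gene each among the 22553 in the count table. All were among the 11990 genes with enough counts to test. The cells were YFP-positive Treg of the spleen and lymph nodes, sorted from female littermates on a C57BL/6 background. The KO mice were Tfamfl/flFoxp3Yfp-Cre/+ and the Ctrl mice Tfamfl/+Foxp3Yfp-Cre/+, so KO cells carry 2 floxed Tfam alleles and Ctrl cells 1, and cells of both groups express the YFP-Cre fusion from the Foxp3 locus. Each library pooled cells of 2 to 3 mice, with 3 KO and 3 Ctrl RNA libraries, and the labels give no age. Foxp3 lies on the X chromosome, so these heterozygous females also hold Treg without Cre, which the YFP sort leaves behind.

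TFAM packages mitochondrial DNA and is needed for its transcription, and the study asks how Treg depend on it. Effector Treg differentiation starts from T cell receptor and cytokine signals. These induce IRF4, which binds DNA together with heterodimers of BATF and JUN proteins at composite sites. The BATF and IRF4 pair then opens the effector programme, in which PRDM1 (the repressor BLIMP-1) and c-MAF support the suppressive cytokine IL-10, ID2 holds E proteins off DNA, and PPARG specialises Treg of visceral fat.

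Levels are CPM, counts divided by library size scaled with TMM factors. Called means an adjusted p (Benjamini-Hochberg) below 0.05 in edgeR's quasi-likelihood test of KO against Ctrl, fitted on the whole table, unless another fit is named. CPM are not corrected for gene length, so levels are compared between libraries and not between genes. Total gene counts ran from 19087757 to 23794028 in KO libraries and from 21419772 to 27490253 in Ctrl libraries. Tfam stood at 15.6, 14.4 and 16.5 CPM in KO libraries 1 to 3, against 25.9, 30.6 and 42.4 CPM in Ctrl libraries 1 to 3, so no library contradicted its label. Its log2 fold change of -1.09 ± 0.17 (SE) was called (adjusted p = 0.020), but not without KO library 1 (0.110), KO library 2 (0.0877), KO library 3 (0.0860) or Ctrl library 2 (0.0552). Counts cover the whole gene, so the remaining KO level does not measure intact mRNA. Foxp3, the master regulator of Treg, was at 873, 799 and 783 CPM in KO libraries and 854, 688 and 689 CPM in Ctrl libraries (adjusted p = 0.613). Libraries with the same number deviated together from their group means, so a fit with the replicate number as a block is given where it changes a call. In RNA of sorted pools, fewer cells of a type and less RNA per cell cannot be told apart.

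Of the 10 factors, 4 were lower in KO, 0 higher and 6 did not pass. The 4 were Maf, Nfil3, Prdm1 and Batf. In the same test 1.39% of all tested genes were lower and 0.1% higher. The 10 were chosen with earlier results of these data known, so such shares are no independent test of the set. With the replicate block edgeR called 8 of the 10 lower and 0 higher, adding Bhlhe40, Id2, Runx3 and Irf4, against 4.39% and 1.97% of all tested genes. DESeq2 with the block called 7 lower and 0 higher, all of the 8 except Irf4 (adjusted p = 0.164), against 2.5% and 1.15% of all tested genes. Without the block, DESeq2 called the same 4 as edgeR (2.2% of all tested genes lower and 0.634% higher), and so did limma-voom (1.13% and 0.025%). With no filter on low counts edgeR added Bhlhe40 (1.22% and 0.0861%). Pparg and Ikzf3 were called in no fit. At an unadjusted p under 0.05, 7 of the 10 were lower and 0 higher, against 7.22% and 5.4% of all tested genes. The median log2 fold change of the 10 was -0.58, against -0.005 over all tested genes, and 8 of the 10 had a value below 0, as did 51.2% of all tested genes. In 8 of the 10 the KO library lay below the Ctrl library in each of the 3 same-numbered pairs, as did 23.7% of all tested genes, and 0 lay above in each pair, as did 21.6%. In 6 of the 10 all KO libraries lay below all Ctrl libraries, as did 10.4% of all tested genes, and 0 had all KO libraries above, as did 8.63%.

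**Figure D1:**
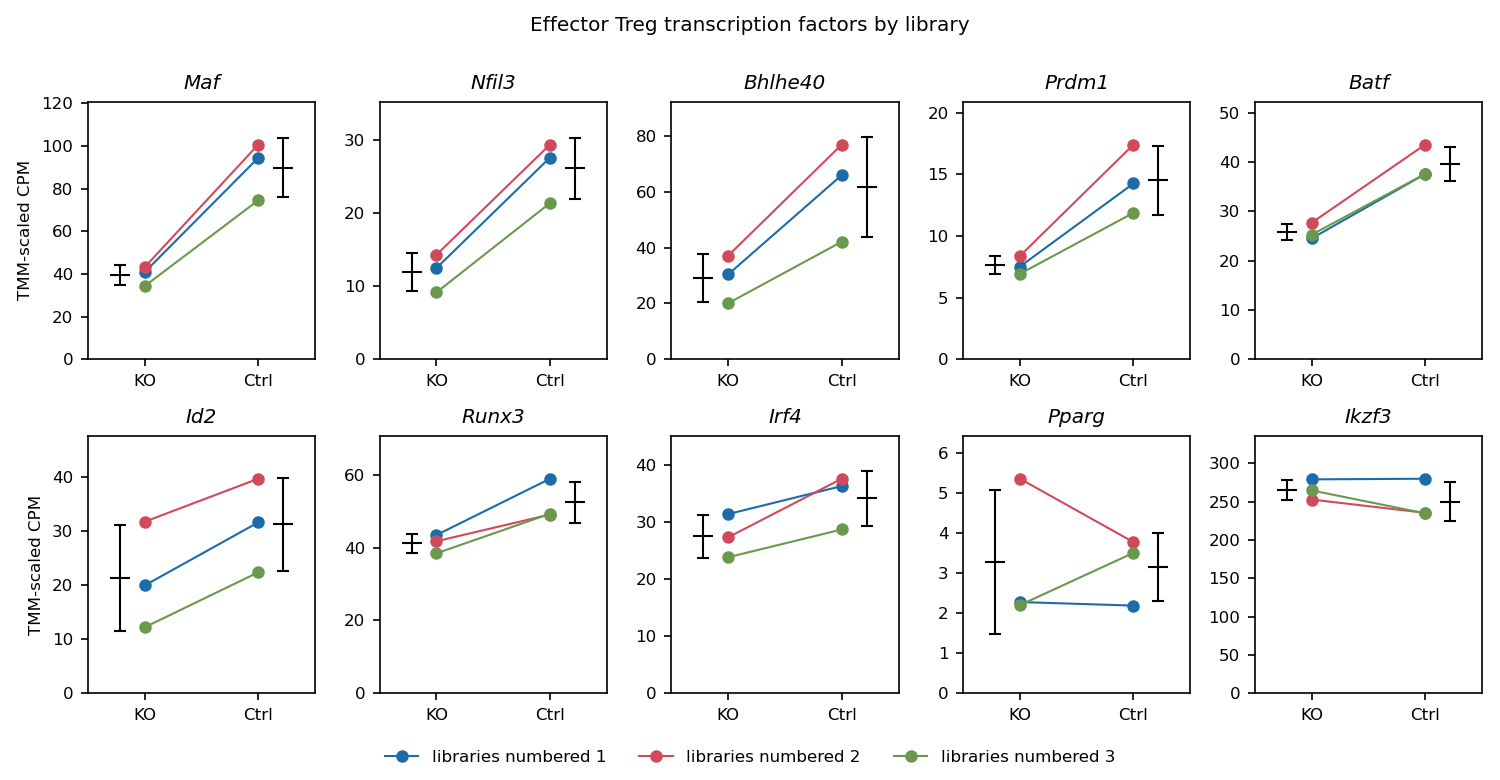
Level of each factor in TMM-scaled CPM (vertical axis, from 0) in the 3 KO libraries (left) and the 3 Ctrl libraries (right), with lines joining same-numbered libraries and black bars giving the mean ± SD. The groups do not overlap for Maf, Nfil3, Bhlhe40, Prdm1, Batf and Runx3, and each KO point lies below the Ctrl point it is joined to in 8 factors, while the lines of Pparg run both ways.

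RefSeq promoter windows (build GRCm38.p6) were found for 7 of the 10 genes, and Maf, Bhlhe40 and Ikzf3 had none in the table used. In the 250 bases before each annotated start, 5 motifs of these factor families were searched on both strands: TGANTCA for AP-1 dimers such as BATF with JUN, GAAA repeated after any 2 bases for IRF proteins, CACGTG for proteins of the BHLHE40 type, TTANNTAA for NFIL3, and TGTGGT for RUNX proteins. The windows below are those of members that were called with or without the block and hold at least 1 of the motifs. Capitals mark the matches.
Prdm1, chr10:44458749-44458998, minus strand: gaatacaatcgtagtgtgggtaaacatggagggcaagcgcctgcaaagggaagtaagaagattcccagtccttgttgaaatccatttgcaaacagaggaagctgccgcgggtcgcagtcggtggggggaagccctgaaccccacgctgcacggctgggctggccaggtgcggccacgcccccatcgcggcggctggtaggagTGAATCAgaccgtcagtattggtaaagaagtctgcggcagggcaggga
Batf, chr12:85686470-85686719, plus strand: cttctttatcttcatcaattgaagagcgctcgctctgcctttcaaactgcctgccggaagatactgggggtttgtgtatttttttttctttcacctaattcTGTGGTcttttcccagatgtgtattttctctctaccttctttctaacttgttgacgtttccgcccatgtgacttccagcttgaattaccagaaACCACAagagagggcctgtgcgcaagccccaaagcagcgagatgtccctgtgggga
Runx3, chr4:135120395-135120644, plus strand: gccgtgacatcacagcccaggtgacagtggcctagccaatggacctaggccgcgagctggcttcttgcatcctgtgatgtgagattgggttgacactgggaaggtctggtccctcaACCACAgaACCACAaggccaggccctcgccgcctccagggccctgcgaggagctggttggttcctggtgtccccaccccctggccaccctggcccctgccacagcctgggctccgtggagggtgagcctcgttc
The Prdm1 window lies at a start inside the gene rather than at its 5′ end. It has 1 match to TGANTCA, with A at the open base, at 48 to 42 bases before the start. The AP-1 letters occur in 6.75% of the 32851 windows in the table. The Batf window has 2 RUNX matches, the first at 149 and the second at 56 bases before the start. The Runx3 window at the gene's 5′ end also has 2, starting 134 and 126 bases before the start. The RUNX letters occur in 4614 of the 32851 windows. Of 3 Pparg windows 1 held TTATATAA at 28 to 21 bases before the start, a match to the NFIL3 letters with TA at the open bases. The NFIL3 letters occur in 5.43% of all windows. The windows of Irf4, Id2 and Nfil3, the second Runx3 window and the other Pparg windows held none of the 5 motifs. The AP-1, IRF and NFIL3 patterns leave some bases open, so a match may not be a site that the factor binds. A match describes letters in a window, and binding was not measured here.

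Batf (ENSMUSG00000034266) encodes the basic leucine zipper protein that pairs with JUN proteins and is required for effector and tissue Treg. It stood at 24.5, 27.7 and 25.2 CPM in KO libraries 1 to 3, against 37.5, 43.5 and 37.6 CPM in Ctrl libraries 1 to 3. The groups did not overlap, and the spread within each was small. Batf fell 1.53-fold (log2 fold change -0.62 ± 0.09, SE; adjusted p = 0.0152), and within pairs 1 to 3 the log2 ratios were -0.62, -0.65 and -0.57. Leaving out 1 library ended the call without KO library 1 (adjusted p = 0.115), KO library 2 (0.0557), KO library 3 (0.0731), Ctrl library 1 (0.0511) or Ctrl library 2 (0.0569), with log2 fold changes between -0.66 and -0.54. With the block it was called with all pairs (adjusted p = 0.000192) and with any 1 pair left out.

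Irf4 (ENSMUSG00000021356) encodes the partner of BATF that T cell receptor signals induce. Its level was 31.4, 27.3 and 23.8 CPM in KO libraries and 36.3, 37.6 and 28.7 CPM in Ctrl libraries. The groups overlapped, since KO library 1 lay above Ctrl library 3, while each KO library was below its same-numbered Ctrl library. The log2 fold change was -0.31 ± 0.13 (SE) and was not called (adjusted p = 0.377). With the block edgeR called it (adjusted p = 0.0303), but not without the pair numbered 2 (0.154) or the pair numbered 3 (0.0985).

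The AP-1 and IRF partners of BATF and IRF4 (Jun, Junb, Jund, Fos, Fosb, Fosl1, Fosl2, Batf2, Batf3 and Irf8) had 9 tested genes with a median log2 fold change of -0.19. Of the 9, 0 were called in edgeR, 0 passed an unadjusted p of 0.05, and 0 were called by DESeq2, limma-voom or either blocked fit with all libraries. With the block and without the pair numbered 2, 5 were called lower (Fosb, Fos, Jund, Junb and Jun). That fit was chosen after seeing the data, and it called 515 of the 11990 tested genes lower and 228 higher. In the pair left out, KO lay above Ctrl for all 5, with log2 ratios of 0.22, 0.36, 0.46, 0.24 and 0.91 in the same order. Junb and Jund, the most abundant of them in CPM, are JUN proteins that dimerise with BATF. Junb stood at 2381, 2609 and 1261 CPM in KO libraries, against 2874, 2214 and 1854 CPM in Ctrl libraries. Jund stood at 710.3, 934 and 795 CPM in KO libraries, against 1041, 681 and 1091 CPM in Ctrl libraries. Both overlapped between the groups. Their log2 fold changes were -0.15 ± 0.26 and -0.21 ± 0.18 (SE; adjusted p = 0.853 and 0.679), and that of Junb was above 0 without KO library 3 (0.11) or Ctrl library 1 (0.05).

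Maf (ENSMUSG00000055435), a basic leucine zipper factor that drives Il10 in T cells, had the lowest log2 fold change of the 10. Its level was 40.9, 43.2 and 34.3 CPM in KO libraries 1 to 3, against 94.4, 100.7 and 74.5 CPM in Ctrl libraries 1 to 3. The highest KO library lay far below the lowest Ctrl library. Maf fell 2.28-fold (log2 fold change -1.19 ± 0.13, SE; adjusted p = 0.00544), and the log2 ratios within pairs were -1.21, -1.22 and -1.12. It was called whichever library was left out, at adjusted p between 0.00247 and 0.0480, and in all 17 fits run. By log2 fold change it ranked 164th from the lowest of the 11990 genes, and by p 21st.

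Prdm1 (ENSMUSG00000038151) encodes BLIMP-1, a zinc finger repressor that marks effector Treg. It stood at 7.52, 8.37 and 6.93 CPM in KO libraries, against 14.3, 17.4 and 11.9 CPM in Ctrl libraries. Counts were 178, 172 and 132 in KO libraries and 371, 383 and 325 in Ctrl libraries, the fewest of the 4 factors called. The groups did not overlap. Prdm1 fell 1.90-fold (log2 fold change -0.93 ± 0.16, SE; adjusted p = 0.0275), with log2 ratios of -0.92, -1.06 and -0.78 within pairs. The call was kept without Ctrl library 3 (adjusted p = 0.0141) and lost without KO library 1 (0.173), KO library 2 (0.0877), KO library 3 (0.126), Ctrl library 1 (0.0872) or Ctrl library 2 (0.0787). With the block it was called with all pairs (adjusted p = 0.000309) and with any 1 pair left out.

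Nfil3 (ENSMUSG00000056749), a basic leucine zipper factor tied to the circadian clock and to Il10 expression in T cells, also fell. It stood at 12.5, 14.3 and 9.13 CPM in KO libraries, against 27.6, 29.3 and 21.3 CPM in Ctrl libraries. Again no KO library reached the lowest Ctrl library. Nfil3 fell 2.18-fold (log2 fold change -1.12 ± 0.18, SE; adjusted p = 0.0200), and within pairs the log2 ratios were -1.15, -1.04 and -1.22. The call was lost without KO library 1 (adjusted p = 0.115), KO library 3 (0.0555), Ctrl library 1 (0.0784) or Ctrl library 2 (0.0778), and kept with the block (1.2e-05) and with the block and any 1 pair left out.

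Bhlhe40 (ENSMUSG00000030103), a basic helix-loop-helix repressor that restrains Il10 in helper T cells, had a log2 fold change close to that of Nfil3 and varied more between libraries of a group. It stood at 30.4, 37.15 and 20.1 CPM in KO libraries, against 66.1, 77.0 and 42.2 CPM in Ctrl libraries. The groups did not overlap, and in each group library 2 was highest and library 3 lowest. Within pairs the log2 ratios lay close together, at -1.12, -1.05 and -1.07. Without the block the log2 fold change of -1.07 ± 0.26 (SE) was not called (adjusted p = 0.107). With the block it was -1.08 ± 0.06 and Bhlhe40 fell (adjusted p = 1.38e-06 in edgeR and 2.67e-23 in DESeq2), also with any 1 pair left out. Without Ctrl library 3 it was called without the block too (0.0358), as it was with no filter on low counts (0.0497).

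Id2 (ENSMUSG00000020644) encodes a helix-loop-helix protein without a DNA-binding region, which sequesters E proteins. It stood at 19.97, 31.7 and 12.2 CPM in KO libraries, against 31.6, 39.7 and 22.4 CPM in Ctrl libraries. The groups overlapped, with KO library 2 level with Ctrl library 1, while each KO library lay below its same-numbered Ctrl library. Without the block the log2 fold change was -0.55 ± 0.32 (SE; adjusted p = 0.521), and with the block -0.60 ± 0.10, called by edgeR (adjusted p = 0.00376) and DESeq2 (0.000721). The E proteins and other ID proteins (Tcf3, Tcf4, Tcf12, Id1 and Id3; Id4 had 0 counts in all 6 libraries) had 5 tested genes with a median log2 fold change of 0.02. Of these 5, 0 were called in edgeR, 0 passed an unadjusted p of 0.05, and 0 were called by DESeq2, limma-voom or the blocked fits of all libraries. Tcf3 and Tcf12, the E proteins with the most counts, had log2 fold changes of 0.01 ± 0.07 and -0.07 ± 0.06 (SE; adjusted p = 0.982 and 0.680).

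Runx3 (ENSMUSG00000070691), a Runt factor that silences Cd4 in CD8 T cells and with its cofactor CBFB helps keep Foxp3 expressed in Treg, had a smaller fold change. It stood at 43.4, 41.7 and 38.4 CPM in KO libraries, against 58.9, 49.1 and 49.3 CPM in Ctrl libraries. The groups did not overlap, and Ctrl library 1 was above the other two. The log2 fold change was -0.35 ± 0.09 (SE) and was not called without the block (adjusted p = 0.150). With the block it was called by edgeR (adjusted p = 0.00825) and DESeq2 (0.0272), but not by edgeR without the pair numbered 3 (0.0562).

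Pparg (ENSMUSG00000000440), the nuclear receptor of visceral fat Treg, and Ikzf3 (ENSMUSG00000018168), the zinc finger factor Aiolos, were the members with fitted values above 0. Pparg had few counts, 54, 110 and 42 in KO libraries and 57, 83 and 96 in Ctrl libraries. Its level was 2.28, 5.36 and 2.20 CPM in KO libraries, against 2.19, 3.77 and 3.51 CPM in Ctrl libraries. KO library 2 was the highest, and the other KO libraries lay within the Ctrl range. Its log2 fold change of 0.06 ± 0.37 (SE; adjusted p = 0.969) was -0.48 without KO library 2. A change smaller than this spread between libraries was not detectable. Ikzf3 stood at 279, 253 and 265 CPM in KO libraries and 279.8, 235 and 235 CPM in Ctrl libraries, and the groups overlapped. Its log2 fold change was 0.09 ± 0.09 (SE; adjusted p = 0.724), and between 0.04 and 0.19 in the 17 fits.

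**Figure D2:**
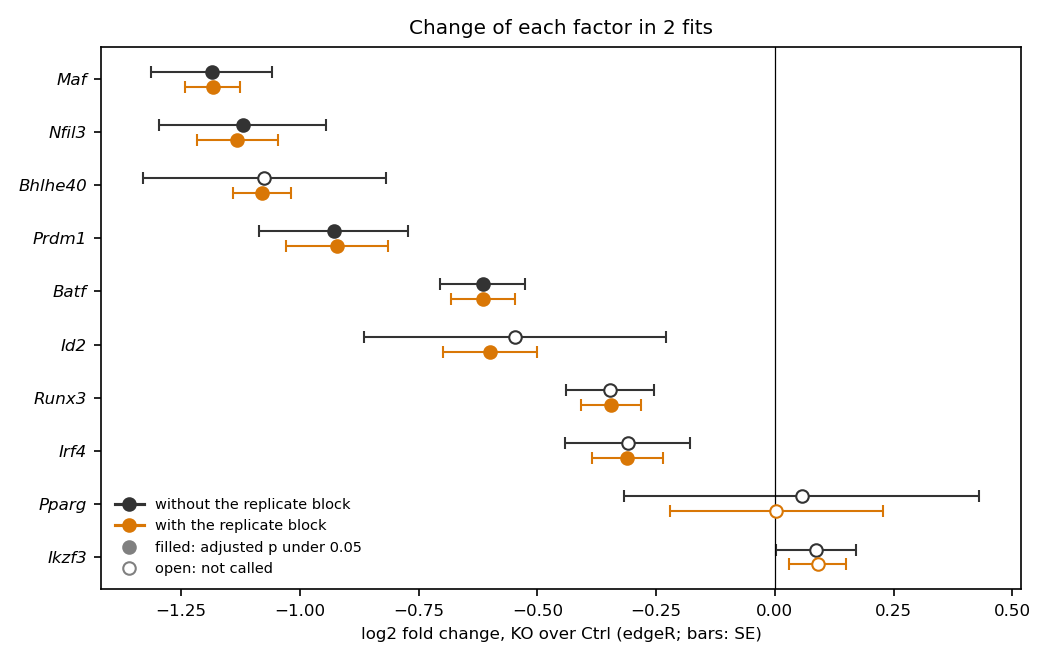
Log2 fold change of KO over Ctrl with its SE (horizontal axis) for the 10 factors, without the block (black) and with it (orange), filled where the adjusted p was under 0.05. Estimates hardly move between the fits, while the SE of Bhlhe40 is 0.26 without the block and 0.06 with it, and that of Id2 0.32 and 0.10.

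The factors also varied together between libraries of 1 group. In 7 of the 10 (Maf, Nfil3, Bhlhe40, Prdm1, Batf, Id2 and Pparg), library 2 was the highest in both groups, as in 15.3% of all tested genes. In 5 of these 7 (all but Batf and Pparg), library 3 was also the lowest in both groups, as in 6.51% of all tested genes. Taken over the 6 libraries as the root mean square difference of centred log2 CPM, Maf and Nfil3 had the most similar pattern of any 2 members, at 0.09. Outside the list, tested genes of at least 5 CPM with the smallest such difference to Maf included Podnl1 (0.07) and Crmp1 (0.09). Stx11 (0.04), Slc39a4 (0.07) and Ccr6 (0.07) were nearest to Prdm1. The nearest to Batf were Kif13a, Cyfip1 and Nrn1, at 0.05, 0.05 and 0.06. Naip5 (0.12), Ebi3 (0.12) and Slc22a15 (0.12) were nearest to Nfil3. The difference between groups is part of this measure.

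The libraries numbered 2 also had the highest summed level of macrophage markers. The summed level of 16 macrophage and monocyte markers was 633, 1485 and 541 CPM in KO libraries 1 to 3, against 502, 1074 and 568 CPM in Ctrl libraries 1 to 3. None of the 16 was at 0 in all libraries, and Spic, the factor of red pulp macrophages, stood at 7.77 to 19.3 CPM in KO libraries and 8.11 to 13.5 CPM in Ctrl libraries. Of 15 tested markers 0 were called in edgeR, at an unadjusted p under 0.05, by DESeq2 or by limma-voom. With the block 4 were higher in KO (Vcam1, Adgre1, Cd68 and Cd14) in edgeR and 2 in DESeq2. Of the 15, 0 had a log2 fold change below 0, against 51.2% of all tested genes, and the median was 0.34. In 6 the KO library lay above the Ctrl library in each same-numbered pair, against 21.6% of all tested genes. Macrophages also express Maf, Pparg, Id2 and Bhlhe40, and the part of their RNA in these levels was not tested. Without both libraries numbered 2, the log2 fold change was -1.17 for Maf (adjusted p = 0.0212), -1.17 for Nfil3 (0.0622), -1.09 for Bhlhe40 (0.181), -0.85 for Prdm1 (0.107), -0.60 for Batf (0.0975), -0.74 for Id2 (0.468) and -0.35 for Pparg (0.823). Only Maf was then called without the block. With the block on the remaining pairs, 7 factors were called, all of the 8 except Irf4.

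**Figure D3:**
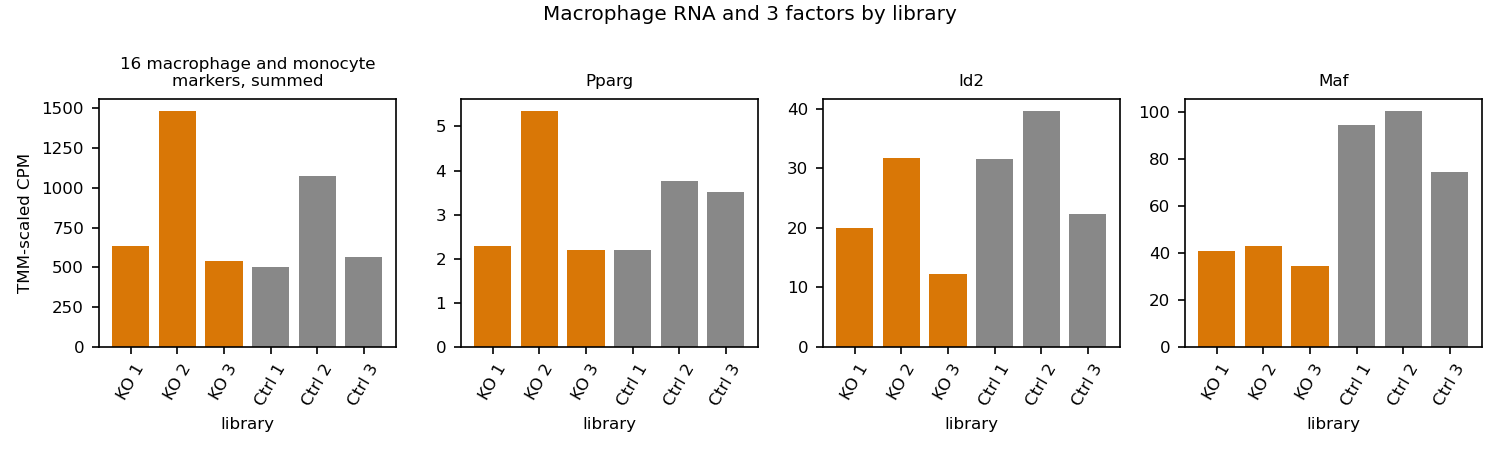
Summed level of the 16 macrophage and monocyte markers and levels of Pparg, Id2 and Maf, each in TMM-scaled CPM (vertical axes from 0), in KO (orange) and Ctrl (grey) libraries. The marker sum is highest in KO library 2 (1485 CPM) and Ctrl library 2 (1074 CPM), as are Pparg, Id2 and Maf within their groups.

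Markers of other cell types that the sort could hold were summed in the same way. The 10 B cell markers summed to between 17.3 and 24.7 CPM in KO libraries and 20.7 and 27.4 CPM in Ctrl libraries, and the 10 dendritic cell markers to between 89.5 and 168 CPM in KO libraries and 108 and 147 CPM in Ctrl libraries. The 9 plasma cell markers, of interest because plasma cells express Prdm1 and Irf4, summed to 63.4, 69.6 and 82.3 CPM in KO libraries and 77.4, 60.6 and 88.3 CPM in Ctrl libraries, with Sdc1 at or below 0.146 CPM in KO libraries and 0.292 CPM in Ctrl libraries. The 10 markers of NK and CD8 T cells, which express Runx3 and Id2, summed to 44.9, 59.8 and 41.8 CPM in KO libraries and 38.8, 46.3 and 41.0 CPM in Ctrl libraries. Adipocyte markers, 7 in number, summed to at most 1.02 CPM in KO libraries and 1.41 CPM in Ctrl libraries. Xbp1 made most of the plasma cell sum (KO 55.4, 63.1 and 71.6 CPM, Ctrl 71.2, 55.3 and 77.4 CPM). In KO library 2 Tyrobp was 26.0 CPM of the NK and CD8 sum. Cst3 and H2-Ab1 were 83.6 and 61.0 CPM of the dendritic sum there. Sums led by so few genes do not measure the amount of a cell type. In the dendritic, plasma and NK and CD8 lists 0 of 7, 6 and 5 tested genes were called in edgeR, at an unadjusted p under 0.05, by DESeq2, limma-voom or a blocked fit of all libraries, and in the B cell list 0 of 7 were called and 1, Cd22, was lower at an unadjusted p under 0.05 and with the block in edgeR (adjusted p = 0.0274). Of 14 T cell and Treg identity genes 1 fell, 0 rose and 13 did not pass, against 1.39% of all tested genes lower and 0.1% higher. The gene that fell was the co-receptor Nrp1 (log2 fold change -0.59 ± 0.09, adjusted p = 0.0208), which was not called without KO library 1 (0.122), KO library 2 (0.0887) or KO library 3 (0.0978). With the block in edgeR Ctla4 was also lower (adjusted p = 0.0432) and Gpr83 higher (0.0323). DESeq2 with the block called Gpr83 (adjusted p = 0.0390) but not Ctla4 (0.0843).

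**Figure D4:**
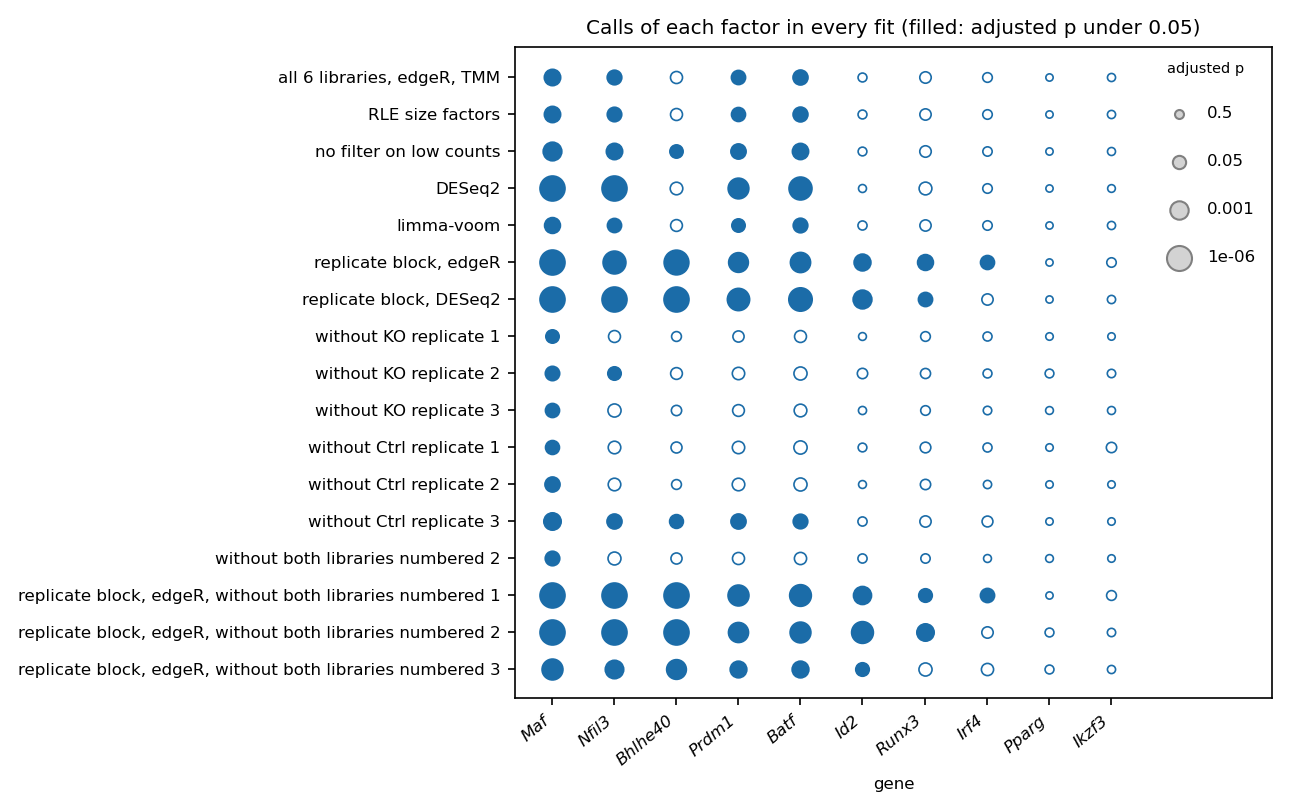
Adjusted p of each factor (columns) in every fit (rows), with larger circles for smaller p and filled circles under 0.05. Maf is filled in all 17 rows, Nfil3, Prdm1 and Batf in all 7 rows with 6 libraries, Id2 and Runx3 only in rows with the replicate block, and Bhlhe40 in those and 2 others.

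Further lists place the 10 factors beside their relatives, inducers and targets. Of 30 relatives from the same families 28 were tested, of which 0 were called in edgeR without the block or by limma-voom, 3 were lower and 1 higher at an unadjusted p under 0.05, and DESeq2 called 2 lower. Their median log2 fold change was 0.00, and Ikzf1 (Ikaros) and Prdm2, the 2 with the most CPM, were at 0.06 ± 0.07 and 0.08 ± 0.06 (SE; adjusted p = 0.777 and 0.646). With the block edgeR called Irf5 (log2 fold change -0.38, adjusted p = 0.00853) and Runx2 (-0.65, 0.0138) lower and Prdm10 (0.33, 0.0156) higher. DESeq2 with the block called Irf5 (adjusted p = 0.0434) but not Runx2 (0.0554) or Prdm10 (0.0666).

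The median log2 fold change of 21 receptors and signalling proteins that induce effector Treg was -0.03. Of these, 2 fell, 0 rose and 19 did not pass, against 1.39% of all tested genes lower and 0.1% higher. The 2 were the IL-33 receptor Il1rl1 and the costimulator Icos. Il1rl1 stood at 4.01, 3.75 and 4.41 CPM in KO libraries, against 15.3, 15.3 and 11.5 CPM in Ctrl libraries, and fell 3.46-fold (adjusted p = 0.00171). Icos stood at 24.95, 25.2 and 23.98 CPM in KO libraries, against 43.4, 61.5 and 40.4 CPM in Ctrl libraries, and fell 1.96-fold (adjusted p = 0.0186), a call lost without KO library 1 (0.118), KO library 2 (0.0887), KO library 3 (0.0966) or Ctrl library 1 (0.0566). With the block the costimulator Tnfrsf4 was also called lower (adjusted p = 0.00636).

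Targets that some of these factors are known to raise in T cells were mostly lower. The list had 20 tested genes, and 12 of them fell while 8 did not pass, against 1.39% of all tested genes lower in the same test. None of the 20 was called higher in any of the 17 fits, and the median log2 fold change was -1.01. This list was drawn up with earlier results of these data known, and Il1rl1 and Icos are in it too. Tigit, a co-inhibitory receptor, stood at 4.77, 3.70 and 3.41 CPM in KO libraries, against 26.4, 36.7 and 28.6 CPM in Ctrl libraries (log2 fold change -2.94 ± 0.17, adjusted p = 0.000434). Cxcr3, a chemokine receptor, stood at 6.92, 7.79 and 6.04 CPM in KO libraries and 39.8, 54.8 and 41.2 CPM in Ctrl libraries (-2.71 ± 0.15, adjusted p = 0.000434). Gzmb, the protease granzyme B, stood at 1.31, 1.32 and 1.10 CPM in KO libraries and 6.92, 10.5 and 7.38 CPM in Ctrl libraries (-2.72 ± 0.22, adjusted p = 0.00141). For these 3 and Il1rl1 the groups did not overlap, and each was called whichever library was left out. The count of lower targets was 7 without KO library 1 and 8 without KO library 3 or without both libraries numbered 2. Over all 11990 tested genes, 26 to 165 were lower with 1 library left out and 55 without both libraries numbered 2. With the block edgeR called 17 lower, adding Lgals1, Tnfrsf4, Tnfrsf9, Areg and Ctla4, against 4.39% of all tested genes. DESeq2 with the block called 15 lower, without Areg (adjusted p = 0.155) and Ctla4 (0.0843), against 2.5% of all tested genes.

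Genes listed as lowered by some of the factors were not called higher. The list is mixed in direction, since, for example, RUNX3 helps keep Foxp3 expressed in Treg. Other listed genes may also be raised by a member, so the list sets no single expected direction. Of 9 tested genes, among them Bcl6, Tcf7, Foxp3, Ifng and Cxcr5, 0 were higher in edgeR, at an unadjusted p under 0.05, by DESeq2, by limma-voom or with the block, and the median was 0.01. The cytokine gene Ifng fell, at 1.14, 1.17 and 0.945 CPM in KO libraries against 3.61, 4.73 and 2.27 CPM in Ctrl libraries (log2 fold change -1.69 ± 0.31, adjusted p = 0.0377), with the call lost without any 1 library other than Ctrl library 3 (adjusted p between 0.103 and 0.186) and in limma-voom (0.0867). Cxcr5, the chemokine receptor of follicular T cells, had a log2 fold change of -0.68 ± 0.14 and was not called without the block in edgeR (adjusted p = 0.0677). It was called lower with the block in edgeR (0.00260) and in DESeq2 without and with the block (0.00470 and 0.00146). Of 14 factors of central Treg and quiescence 0 were called in edgeR, 3 were higher and 0 lower at an unadjusted p under 0.05, DESeq2 called 1 higher and limma-voom 0, and the median was 0.07. The most abundant in CPM, Ets1 and Klf2, were at 0.04 ± 0.08 and -0.03 ± 0.26 (SE; adjusted p = 0.868 and 0.980). Bach2 (0.34 ± 0.05, adjusted p = 0.00331) and Satb1 (0.28 ± 0.07, adjusted p = 0.0258) were higher with the block.

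**Figure D5:**
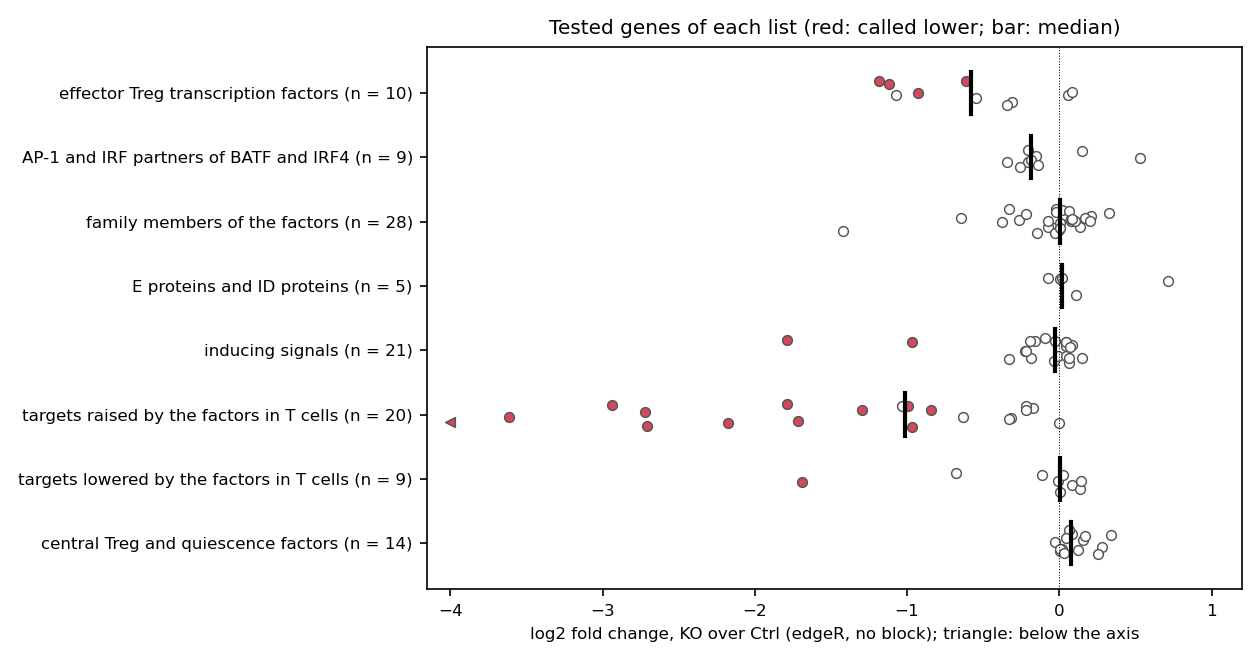
Log2 fold change of KO over Ctrl without the block (horizontal axis) for every tested gene of 8 lists, red where called lower, with a bar at each list's median. The medians are -0.58 for the effector Treg factors and -1.01 for their raised targets, and lie between -0.19 and 0.07 in the other 6 lists. The triangle is Klrg1, a receptor of effector Treg, whose 3 counts over the KO libraries, against 418 over the Ctrl libraries, give no precise size.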

How the data were processed

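RNA from YFP-positive Treg was poly(A)-selected and sequenced as 6 libraries. The values were raw read counts per Ensembl gene in 1 table that the authors deposited, HTSeq counts per the labels. Per the submitters' processing notes, tools included HISAT2 and Cufflinks, with the builds mm9 and mm10, in no stated role. Versions, annotation and the strand setting were not stated, so overlapping genes on opposite strands may share reads. ATAC-seq libraries (2 per group) were not analysed here. Of 22553 gene IDs, 22522 matched a symbol; the other 31 held 0.00269% of counts. A count of 3 equals 0.109 CPM in the deepest library and 0.157 CPM in the shallowest. Floors cover counting error only.

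The test was edgeR's (version 4.0.16, R 4.3.3): filterByExpr (minimum count 10, minimum total 15; 11990 genes kept), TMM factors (0.990 to 1.027), quasi-likelihood F test of KO against Ctrl, and Benjamini-Hochberg adjustment over all tested genes. SE were derived from the F statistic. P-values measure the spread between pools, which may be partly technical. Alternatives were DESeq2 1.42.0, limma-voom (limma 3.58.1), RLE size factors, no filter, each library left out, both libraries numbered 2 left out, and the replicate number as a block. The numbers were taken to pair the libraries because the deviations from group means of all 3 same-numbered pairs correlated above 0.1 (0.30, 0.58 and 0.54 over the 11990 genes, for pairs 1 to 3); the labels do not say what a number shares. No 2 libraries of a group agreed within sampling noise (chi-square per degree of freedom 8.79 to 27.8), so each was counted once. The test was checked on simulated counts of 11990 genes, KO against Ctrl, with 200 genes changed in each of 3 runs: it recovered 96.5% of 4-fold, 76.1% of 2-fold and 48.5% of 1.5-fold changes, and unchanged genes made up 8.7% of calls.

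The members and all lists were chosen with earlier results of these data known. Every member was named; of each list, all called genes where there were at most 4, otherwise the 4 with the smallest adjusted p, or the 2 with the highest CPM where none was called. Genes called only in an alternative fit were also named. Spic, Sdc1, Igha, Jchain and Klrg1 were named after their values were seen. Some genes that the rule would name are not reported here.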

Additional observations from a re-analysis of the deposited data

How the results depend on the processing

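The members called lower numbered 4 in edgeR, DESeq2, limma-voom and with RLE size factors, and 5 with no filter; 0 members were called higher in any of the 17 fits. The replicate block gave 8 members lower in edgeR and 7 in DESeq2. Leaving out 1 library gave 1 to 5 members lower, leaving out both libraries numbered 2 gave 1, and the block without the pair numbered 1, 2 or 3, chosen after seeing the data, gave 8, 7 and 6. The cause was not tested, although fits with fewer libraries have fewer degrees of freedom.

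Across the 11990 genes edgeR called 167 lower and 12 higher. The counts were 264 lower and 76 higher in DESeq2, 136 and 3 in limma-voom, 526 and 236 with the replicate block, and 300 and 138 with the block in DESeq2. They were 26 to 165 lower and 0 to 6 higher with 1 library left out, 55 and 0 without both libraries numbered 2, and 486 and 439, 515 and 228, and 299 and 63 with the block and without pair 1, 2 or 3. The block changed no direction of a called member.

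Of the members, only Pparg changed sign. Its log2 fold change of 0.06 was -0.030 in limma-voom, -0.014 with the block in DESeq2, between -0.48 and 0.27 with 1 library left out (-0.48 without KO library 2, -0.14 without Ctrl library 1), -0.35 without both libraries numbered 2, and -0.013 and -0.31 with the block and without pair 1 or 2. Among the partners, Junb was between -0.34 and 0.11 with 1 library left out (0.11 without KO library 3, 0.05 without Ctrl library 1), and Jund at 0.011 with the block and without pair 1. Pparg, with 42 to 110 counts per library, had the fewest counts of the members. Its KO libraries spread from 2.20 to 5.36 CPM.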
